A study of Oryza sativa Japonica Group with 4 samples.

Results

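WRKY transcription factors are plant regulators named for a conserved peptide in their DNA-binding domain. They bind W boxes, short promoter elements with a TGAC core, and many of them switch defence genes on or off after pathogen attack. In cereal grains some of them also repress genes that answer gibberellin or abscisic acid in the aleurone, the outer cell layer of the endosperm. Here their transcripts were followed in rice panicles across meiosis and grain ripening, in wild type and in plants with the POLA gene mutated or silenced.

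A gene was counted as a WRKY gene when it was the 1 gene paired with a probe set and its symbol or a synonym was WRKY and a number. This gave 6 of 17905 genes, represented by 7 probe sets: WRKY9 (LOC4343736), WRKY24 (LOC4327518), WRKY51 (LOC4335388), WRKY62 (LOC4347070), WRKY71 (LOC4328512) and WRKY76 (LOC4347069). WRKY genes known to the tables by locus number alone were not counted. WRKY numbers differ between naming systems, and the same tables also list WRKY24 as WRKY8 and WRKY71 as wrky38. WRKY71 had 2 probe sets, of which the one with the higher mean signal was used, and each other gene had 1. No probe set of the 6 genes carried a suffix that marks possible hybridisation to related genes.

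The samples were panicles of rice, Oryza sativa Japonica Group, from 4 groups with 1 Affymetrix array each. At the early to late meiotic stage these were wild type and the pola (polaris) mutant. During ripening, from day 10 to day 15 after pollination, they were wild type and a POLA RNAi line of the T2 generation. Each sample pooled 20 panicles from 10 plants grown in a greenhouse under daylight. The sources used here do not give the mutant allele, the RNAi promoter, the number of lines or the cultivar. One label conflicts: the RNAi sample is described in 1 field as wild lines, and in its title, source and genotype fields as the RNAi line, which was followed. With 1 array per group there was no replicate check and no test, and precision is limited by this number of arrays. In these whole-panicle samples fewer cells of a type and less RNA per cell cannot be told apart.

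Signals are linear MAS5 values. The arrays differed most among dim probe sets: the medians were 124 (wild type, meiosis), 51.8 (mutant), 163 (wild type, ripening) and 65.7 (RNAi line). A signal below 163, the highest of these medians, was therefore read as dim, and this value served as a common floor. For GAPDH the 3′ probe set divided by the 5′ probe set, a measure of RNA and labelling quality, gave 2.04 and 2.01 in the wild types, 4.22 in the mutant and 3.32 in the RNAi line. The same quotient was 5.89 and 6.22 for actin in meiotic and ripening wild type, 8.06 in the mutant and 6.10 in the RNAi line, and for cyclophilin 1.42, 1.90, 1.86 and 1.27. All 3 were thus higher in the mutant than in meiotic wild type, GAPDH alone was higher in the RNAi line than in ripening wild type, and their part in the results was not tested. The labelled stages were checked with markers. All 7 tapetum genes (the tapetum is the layer that feeds pollen) were at or above the floor in both meiotic samples, and their summed signal was 62412 in wild type and 90741 in the mutant against 885 and 558 at ripening in wild type and the RNAi line. All 7 endosperm genes were above it at ripening and none at meiosis, with sums of 240705 in wild type and 321304 in the RNAi line against 399 and 287. Of 6 meiosis genes, 4 reached the floor in both meiotic samples and 3 in both ripening samples. The 3 matched green tissue genes were above it in all 4 samples.

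Differences are given as log2 ratios after adding a pseudocount of 23.4 to both signals, which understates the change of dim genes. A gene was kept in a comparison when at least 1 of its 2 signals was no lower than the median signal of that array, and was called when the ratio was at least 2-fold, a size of 1 on the log2 scale. The same ratio was also taken after raising every signal below 163 to that value.

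WRKY71, WRKY62 and WRKY76 belong to clade IIa, whose members act mainly as transcriptional repressors. WRKY71 represses gibberellin-responsive promoters in aleurone, and raises resistance to bacterial blight when overexpressed. Its signal was 746 in meiotic wild type, 1118 in the mutant, 2895 in ripening wild type and 1170 in the RNAi line. Wild type at ripening was thus the highest of the 4 arrays, wild type at meiosis the lowest, and the mutant and the RNAi line lay close together between them. The other probe set of WRKY71 read 76.4, 111, 435 and 122 in the same order of arrays, with the same order of levels, although all but the ripening wild type were dim there.

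WRKY24 acts in the same tissue, where it represses reporters of both gibberellin and abscisic acid responses. It read 12.8 in meiotic wild type, 86.9 in the mutant, 462 in ripening wild type and 182 in the RNAi line. Both meiotic signals were dim, and the RNAi signal lay just above the floor. On its own array the wild-type meiotic signal exceeded 8.75% of probe sets and the mutant signal 56.5%.

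WRKY51 is a partner that binds with WRKY71 and strengthens its repression in aleurone. Its signals were 503 in meiotic wild type, 539 in the mutant, 754 in ripening wild type and 666 in the RNAi line. They spanned a narrow range, with both ripening arrays above both meiotic arrays. WRKY9 was the flattest gene of the 6, with 1176 in meiotic wild type, 1177 in the mutant, 1249 in ripening wild type and 954 in the RNAi line.

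WRKY62 and WRKY76 lower resistance to bacterial blight or blast when overexpressed, and WRKY62 is also listed as XB10, a protein that binds the receptor kinase XA21. They are neighbours in the genome annotation, with 0 annotated genes between them. WRKY76 read 9.50 in meiotic wild type, 17.6 in the mutant, 425 in ripening wild type and 399 in the RNAi line. It was dim in both meiotic samples and bright in both ripening samples, with little between the genotypes at ripening. At meiosis its dim signal exceeded 4.98% of the probe sets of the wild-type array and 32.0% of those of the mutant array. WRKY62 read 134 in meiotic wild type, 4.96 in the mutant, 183 in ripening wild type and 162 in the RNAi line. Only the ripening wild type was above the floor, and the mutant reading exceeded 17.1% of the probe sets of its array, against 51.6% for wild type at meiosis.

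**Figure D1:**
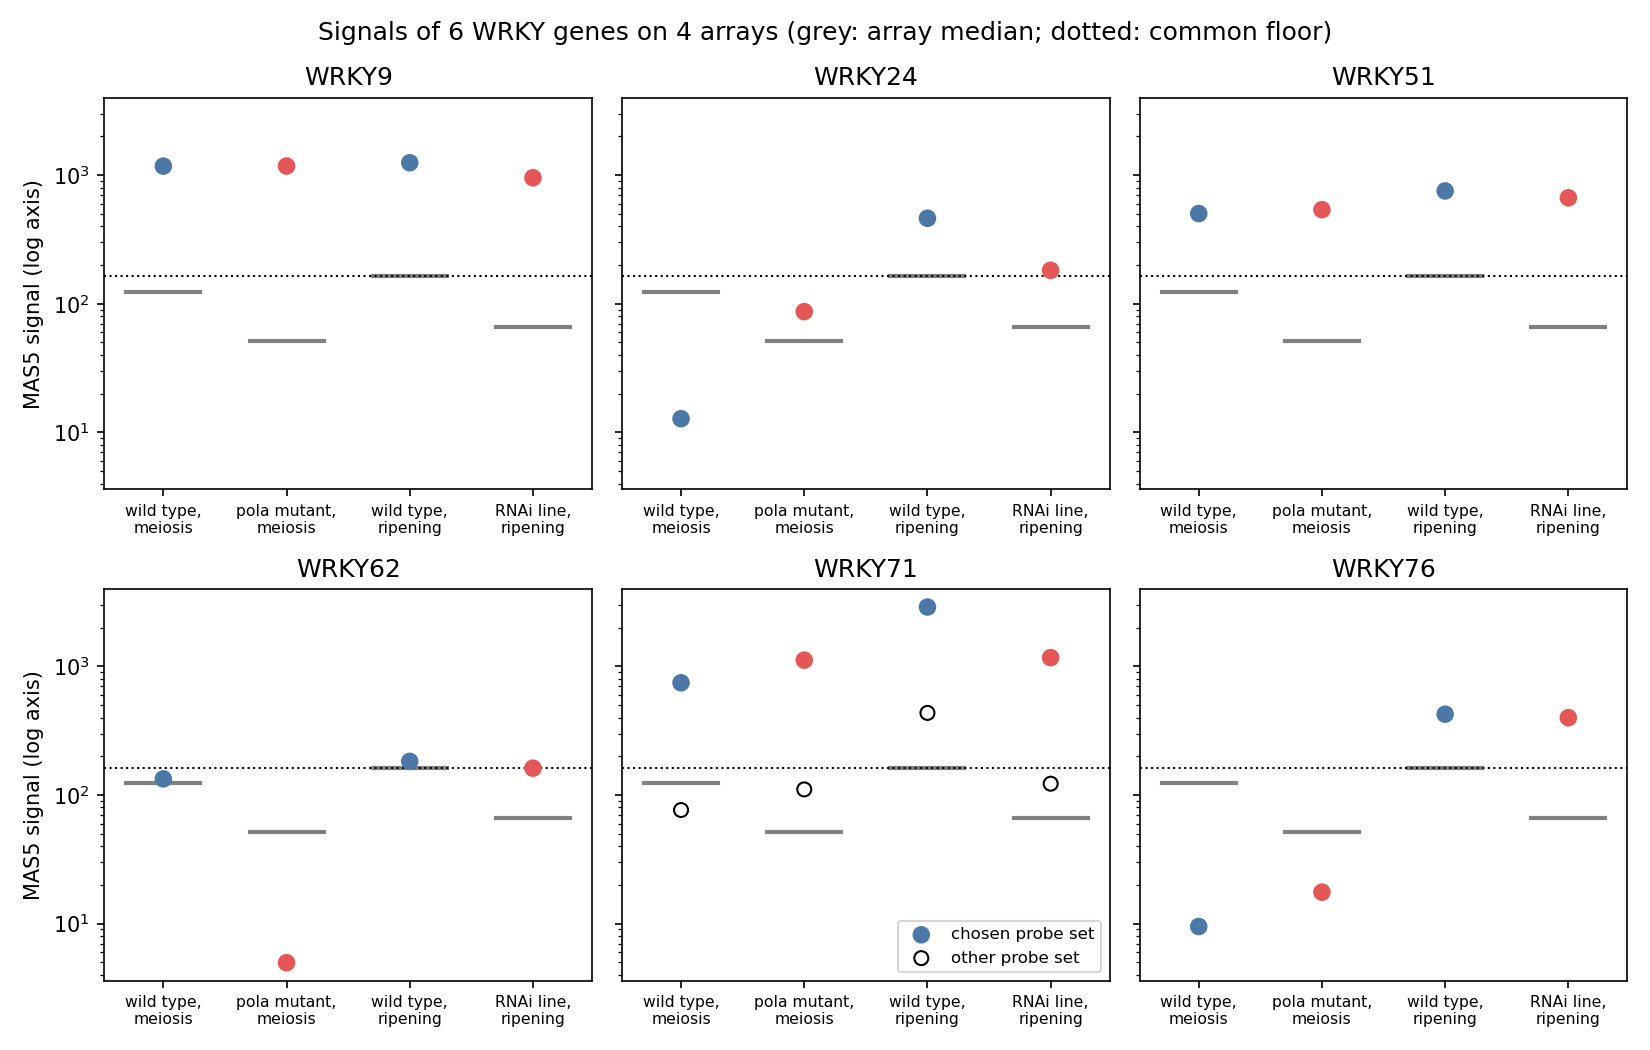
MAS5 signals (log axis) of the 6 WRKY genes on the 4 arrays, with wild types in blue, the mutant and the RNAi line in red, open circles for the other probe set of WRKY71, grey bars for each array's median and a dotted line at the common floor of 163. WRKY71 is highest in wild type at ripening (2895) on both of its probe sets, WRKY76 is high in both ripening samples (425 and 399), and WRKY9 stays between 954 and 1249.

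Setting ripening against meiosis within wild type asks how these regulators differ between the 2 sampled stages. WRKY76, WRKY24 and WRKY71 were higher at ripening, and none of the 6 genes was lower past 2-fold. The log2 ratio was 3.77 for WRKY76, 3.75 for WRKY24 and 1.92 for WRKY71. Against the floor WRKY76 was at least 2.60-fold and WRKY24 at least 2.83-fold higher, since both were dim at meiosis, while WRKY71 was bright on both arrays and 3.88-fold higher. WRKY51 had a log2 ratio of 0.56, WRKY62 0.39 and WRKY9 0.09. All 6 genes passed the filter, so 3 of 6 were called higher, where 15.3% of the 16235 kept genes were called higher and 16.3% lower. WRKY24 and WRKY76 passed the filter through the ripening array alone, so only a higher call was open to them. Without the filter 3 of the 6 were past 2-fold higher and 0 lower, where 2811 and 2778 of all 17905 genes were. The median log2 ratio of the 6 genes was 1.24 and that of all genes 0.03. With the common floor the same 3 genes were called, at 1.38, 1.50 and 1.96, where 13.1% of genes were called higher and 14.4% lower.

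The RNAi line at ripening and the mutant at meiosis give a second pair of arrays of different stage, in plants with POLA silenced or mutated. This pair differs in the kind of plant as well as in stage, so the 2 cannot be told apart. WRKY76 was again higher at ripening, with a log2 ratio of 3.37, at least 2.45-fold against the floor. WRKY71 read 1170 and 1118, a log2 ratio of 0.06, beside 1.92 in wild type. WRKY24 read 182 and 86.9, a log2 ratio of 0.90, beside 3.75 in wild type. WRKY62 was called higher with 2.71, which rests on its dim reading in the mutant and was 0.00 with the floor. The ratio was 0.30 for WRKY51 and -0.30 for WRKY9. Thus 2 of 6 genes were called higher, where 15.7% of the 16766 kept genes were called higher and 16.8% lower. Both genes, WRKY76 and WRKY62, passed the filter through the RNAi array alone, so only a higher call was open to them. Without the filter 2 of the 6 were past 2-fold higher and 0 lower, where 2774 and 2854 of all 17905 genes were. With the floor 1 gene, WRKY76, remained called, where 11.8% were called higher and 14.5% lower.

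Setting the RNAi line against wild type at ripening addresses the silencing of POLA in the ripening panicle. WRKY71 and WRKY24 were lower in the RNAi line. All 6 genes had a ratio below 0, where 53.5% of all genes had a ratio above 0. Of the 6, WRKY71 and WRKY24 alone kept this sign under every scaling tried. WRKY71 read 2895 in wild type and 1170 in the RNAi line, a 2.47-fold difference with a log2 ratio of -1.29, and WRKY24 read 462 and 182, a 2.54-fold difference with -1.24. The other probe set of WRKY71 read 435 and 122, a log2 ratio of -1.65. WRKY9 had a log2 ratio of -0.38, WRKY51 -0.17, WRKY62 -0.16 and WRKY76 -0.09. The 2 genes called lower were 2 of 6, all 6 having passed the filter, where 7.20% of the 16291 kept genes were called lower and 3.54% higher. The median log2 ratio was -0.28 for the 6 genes and 0.04 for all genes. WRKY71 lay at the 4.70 percentile of log2 ratios of kept genes and WRKY24 at the 5.05 percentile. Both stayed past 2-fold with the floor, at -1.31 and -1.35, where 3.55% were called lower and 1.85% higher.

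The scaling of the arrays moved these values. WRKY24 was -0.92 after quantile normalization, -0.89 after loess centring and -0.84 with the median ratio of all probe sets set to 0, all under 2-fold. WRKY71 was -0.89 with the median ratio set to 0. The small ratios were above 0 under some scalings, with highest values of 0.02 for WRKY9, 0.23 for WRKY51, 0.65 for WRKY62 and 0.32 for WRKY76. Over all genes the balance of calls also turned, from 577 higher and 1173 lower to 1312 higher and 555 lower after quantile normalization.

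Setting the pola mutant against wild type at meiosis addresses the mutation of the gene in the meiotic panicle. None of the genes that were bright at this stage passed 2-fold. WRKY71 was 1118 in the mutant and 746 in wild type, 1.50-fold, with a log2 ratio of 0.57, and the other probe set had 0.42. WRKY51 had 0.09 and WRKY9 0.00. The calls fell on dim genes: WRKY24 was called higher with 1.61 and WRKY62 lower with -2.47. Both signals of each were below the floor, so neither has a fold against it. WRKY76, at 17.6 and 9.50, did not pass the filter and had 0.32. Of the 5 kept genes 1 was called higher, where 2.22% of the 16082 kept genes were, and 1 lower, where 4.26% were. WRKY24 passed the filter through the mutant array alone, so only a higher call was open to it. WRKY62 passed through the wild-type array alone, so only a lower call was open to it. Without the filter the same 2 genes were past 2-fold, where 370 of all 17905 genes were higher and 1229 lower. With the floor no WRKY gene was called, where 1.14% of genes were called higher and 1.01% lower. The median log2 ratio of the 6 genes was 0.21 and that of all genes 0.01. The balance over all genes turned from 357 higher and 685 lower to 750 higher and 224 lower after quantile normalization, while WRKY71 kept a ratio between 0.51 and 0.88 over 8 alternatives.

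**Figure D2:**
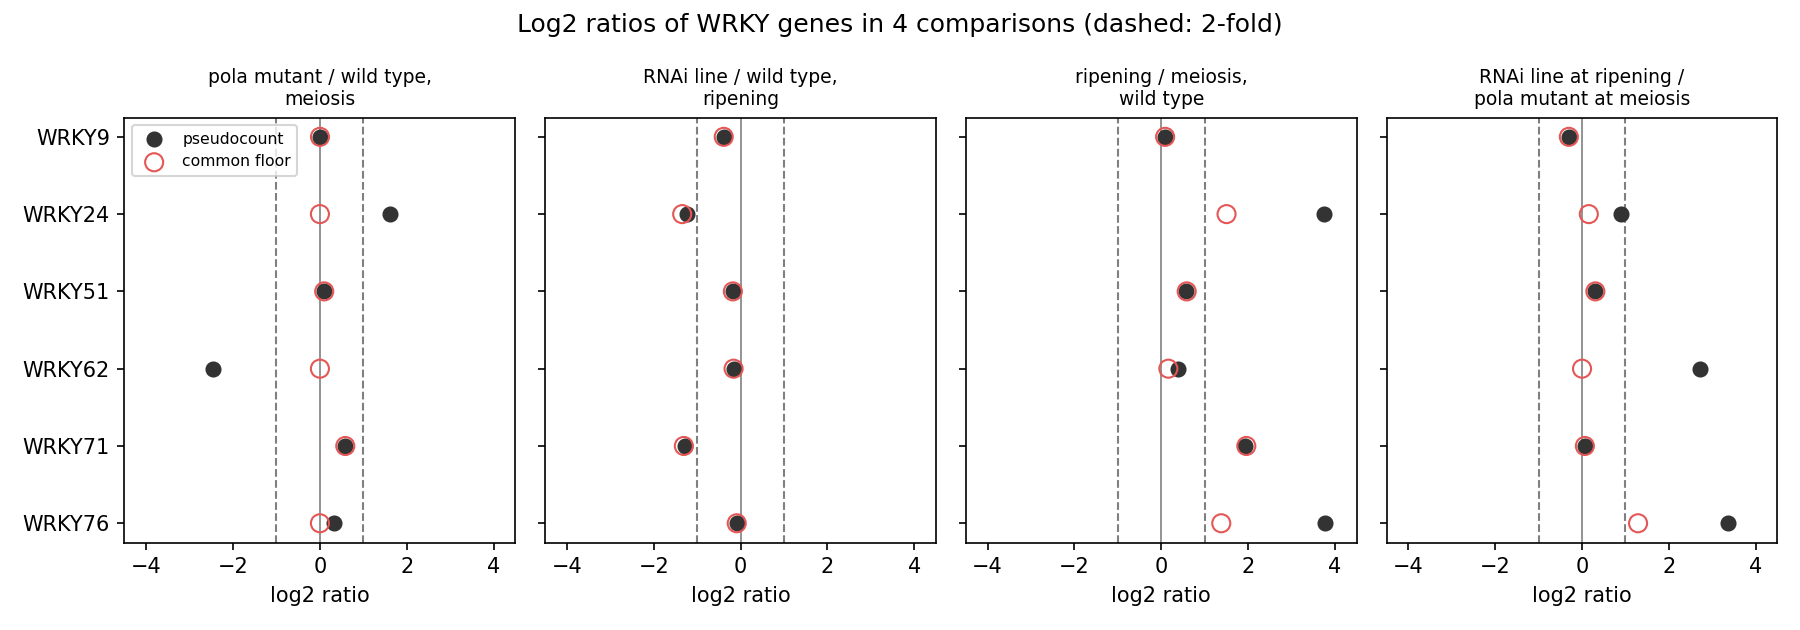
Log2 ratios of the 6 WRKY genes in the 4 comparisons, with the pseudocount (black) and with the common floor (open red), and dashed lines at 2-fold. Points that part, such as WRKY62 in the mutant comparison (-2.47 and 0.00), rest on dim signals, while WRKY71 has nearly the same value either way in each comparison.

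The mutant and RNAi comparisons share no array. WRKY71 went opposite ways in them, with 0.57 in the mutant, which was not called, and -1.29 in the RNAi line. Over all genes 37.7% had opposite signs in the 2 comparisons. For WRKY71 the RNAi ratio minus the mutant ratio was -1.86, and 3.72% of the 17905 genes had a difference at least as large in size. The other probe set of WRKY71 had 0.42 and -1.65. WRKY24 had 1.61 and -1.24, of which only the second stands on signals above the floor. The 2 comparisons differ in stage and in the way POLA was altered, and these cannot be told apart.

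**Figure D3:**
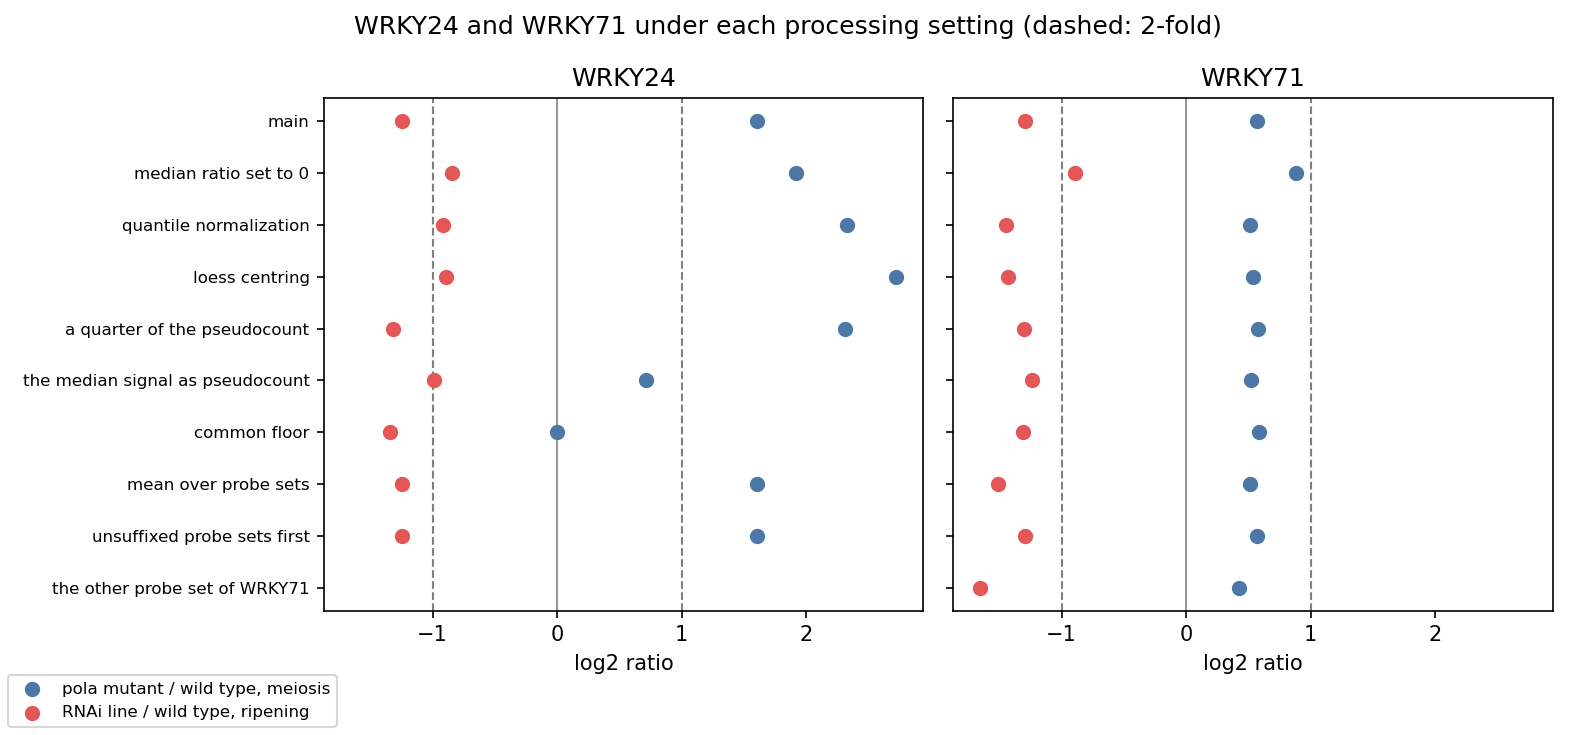
Log2 ratios of WRKY24 and WRKY71 in the mutant (blue) and RNAi (red) comparisons under the main setting, 8 alternatives and, for WRKY71, its other probe set, with dashed lines at 2-fold. With its chosen probe set or the mean over both, WRKY71 stays between 0.51 and 0.88 in the mutant and between -1.51 and -0.89 in the RNAi line, and its other probe set, dim on all arrays but ripening wild type, goes the same ways, while WRKY24 in the mutant runs from 0.00 with the floor to 2.72 after loess centring.

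Genes around the WRKY factors were read from lists of their upstream kinases, their partners and their outputs. MAP kinases phosphorylate some rice WRKY factors, and 16 of the 17 genes of that list were measured, all of them kept in every comparison. None was called in the mutant or in the RNAi line, with medians of 0.05 and 0.18. Over all kept genes 2.22% were called higher and 4.26% lower in the mutant, and 3.54% and 7.20% in the RNAi line. At these shares few calls fall in a list of 16 genes. At ripening in wild type 4 kinases were called higher and 1 lower, where 15.3% and 16.3% of all kept genes were. Among them were MPK2 (LOC4344698) from 319 to 1163, with a log2 ratio of 1.79, MPK17 (LOC4339697) from 162 to 477, with 1.44, and MPK15 (LOC4350264) from 1016 to 363, with -1.43. The counts were the same, 4 higher and 1 lower, between the RNAi line and the mutant, where 15.7% and 16.8% of all kept genes were called. MPK13 (LOC4328223) read 132 in the mutant and 885 in the RNAi line, a log2 ratio of 2.44 with the floor. The VQ proteins, known partners of WRKY factors, matched 0 genes by name.

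Salicylate, the hormone that acts upstream of several WRKY genes, was followed through 13 of 14 listed genes. None was called in the mutant or in the RNAi line, with medians of -0.13 and -0.12. Over all kept genes 2.22% were called higher and 4.26% lower in the mutant, and 3.54% and 7.20% in the RNAi line. At these shares few calls fall in a list of 13 genes. Among the 13 was NH1 (LOC4327315), the rice NPR1 gene and central coactivator of salicylate responses, which is named here after its values were seen. NH1 read 290 in meiotic wild type, 600 in the mutant, 395 in ripening wild type and 194 in the RNAi line. Its log2 ratio was 0.99 in the mutant and -0.95 in the RNAi line, and with the floor 1.05 and -1.03, the 1 call of the list in each. With the floor 1.14% of all kept genes were called higher in the mutant and 3.55% lower in the RNAi line. Between stages in wild type, TGAL7 (LOC4346610) was called higher with 1.89, and TGAL4 and NPR4 (LOC4325758) lower with -1.39 and -1.27. These were out of 12 kept, where 15.3% of all kept genes were called higher and 16.3% lower. TGAL7 passed the filter through the ripening array alone, so only a higher call was open to it. TGAL4 passed through the meiotic array alone, so only a lower call was open to it. Between the RNAi line and the mutant 3 of 13 were called higher and 2 lower, near the shares over all kept genes of 15.7% and 16.8%. TGAL7 had 2.05, or 1.42 with the floor, TGAL8 (LOC4341530) 1.93, or 0.15 with the floor, and NH1 -1.52. Here TGAL8 passed the filter through the RNAi array alone, so only a higher call was open to it.

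Defence outputs were higher at ripening. Diterpenoid phytoalexins are antimicrobial compounds whose synthesis genes are under WRKY control, and 16 of 17 listed genes were measured. In wild type 12 of 15 kept genes were called higher at ripening and 0 lower. Over all kept genes 15.3% were called higher and 16.3% lower. With the floor 10 of the list were called higher, where 13.1% of all kept genes were. Most of the 15 passed the filter through the ripening array alone, so only a higher call was open to them. Without the filter 12 of the 16 were past 2-fold higher and 0 lower, where 2811 and 2778 of all 17905 genes were. The median over all 16 was 2.44, or 1.75 with the floor. The cyclase gene CPS2 (LOC9266189) read 6.08 at meiosis and 2875 at ripening, the cytochrome P450 gene CYP71Z7 (LOC4329726) 81.2 and 2830, and the cyclase gene CPS4 (LOC4335090) 9.51 and 796. Between the mutant and the RNAi line 14 of 15 were called higher, and with the floor 11, where 15.7% and 11.8% of all kept genes were. Most of these 15 also passed the filter through the ripening array alone. Without it 14 of the 16 were past 2-fold higher, where 2774 of all 17905 genes were. The mutant signals of CPS2, CYP71Z7 and CYP99A2 (LOC4335096) were dim, at 8.23, 31.5 and 5.65, and with the floor their log2 ratios were 4.61, 5.24 and 2.78. The pathogenesis-related gene PBZ1 (LOC4352491), the 1 gene of its list with a name in the tables, read 1824 in meiotic wild type, 3111 in the mutant, 26900 in ripening wild type and 35474 in the RNAi line.

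Between genotypes few phytoalexin genes stayed called with the floor. In the mutant only 6 of 16 passed the filter, and 4 of these were called lower. Over all kept genes 4.26% were called lower and 2.22% higher. Among the 4 were CYP99A3 (LOC4335091) with -3.41, CYP99A2 with -2.44 and CYP76M6 (LOC4329730) with -1.60. These 3 passed the filter through the wild-type array alone, so only a lower call was open to them. All 3 were under 2-fold with the floor. The 1 gene that stayed called was CYP76M8 (LOC4329722), from 389 to 123, with -1.50, or -1.25 with the floor. With the floor 1.01% of all kept genes were called lower. In the RNAi line 2 of 16 were called higher and 2 lower, where 3.54% of all kept genes were called higher and 7.20% lower. They were CYP71Z7, from 2830 to 6178, with 1.12, KSL10 (LOC4352248) with 1.71, CYP76M7 (LOC4341447) with -2.71 and CYP76M6 with -1.28. KSL10 passed the filter through the RNAi array alone, so only a higher call was open to it. CYP76M7 passed through the wild-type array alone, so only a lower call was open to it. Without the filter the counts of the list were the same, where 607 of all 17905 genes were past 2-fold higher and 1779 lower. CYP71Z7 alone stayed called with the floor, at 1.13, where 1.85% of all kept genes were called higher and 3.55% lower.

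Alpha-amylases release sugar from starch, and gibberellin raises them in aleurone, where WRKY71 and WRKY51 repress an alpha-amylase promoter. Of 6 listed genes 5 were measured. At ripening in wild type 4 of 4 kept genes were called higher, where 15.3% of all kept genes were. These 4 passed the filter through the ripening array alone, so only a higher call was open to them. Without the filter 4 of the 5 measured genes were past 2-fold higher, where 2811 of all 17905 genes were. All 4 were dim at meiosis, and with the floor 3 stayed called, AMY1.4 (LOC4345812) with 4.34, AMY1.2 (LOC4347262) with 1.59 and AMY1.3 (LOC4345814) with 1.57, while AMY1.5 (LOC4342055) had 0.89. In the RNAi line 2 of 4 kept genes were called lower and 1 higher, where 7.20% and 3.54% of all kept genes were. The 2 called lower, AMY1.2 and AMY1.3, passed the filter through the wild-type array alone, so only a lower call was open to them. Without the filter 2 of the 5 measured genes were past 2-fold lower and 1 higher, where 1779 and 607 of all 17905 genes were. The brightest of the list, AMY1.4, read 3305 in wild type and 1996 in the RNAi line, with -0.72, and was not called. AMY1.1 (LOC4330832) was dim on all 4 arrays and was not kept. AMY1.2 and AMY1.3 read 491 and 485 in wild type and 1.85 and 48.2 in the RNAi line, at least 3.01-fold and 2.97-fold lower, and AMY1.5 read 302 and 783, with a log2 ratio of 1.31. The median over the 5 genes was -0.72. In the mutant 1 of 5 passed the filter and none was called, where 2.22% of all kept genes were called higher and 4.26% lower.

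**Figure D4:**
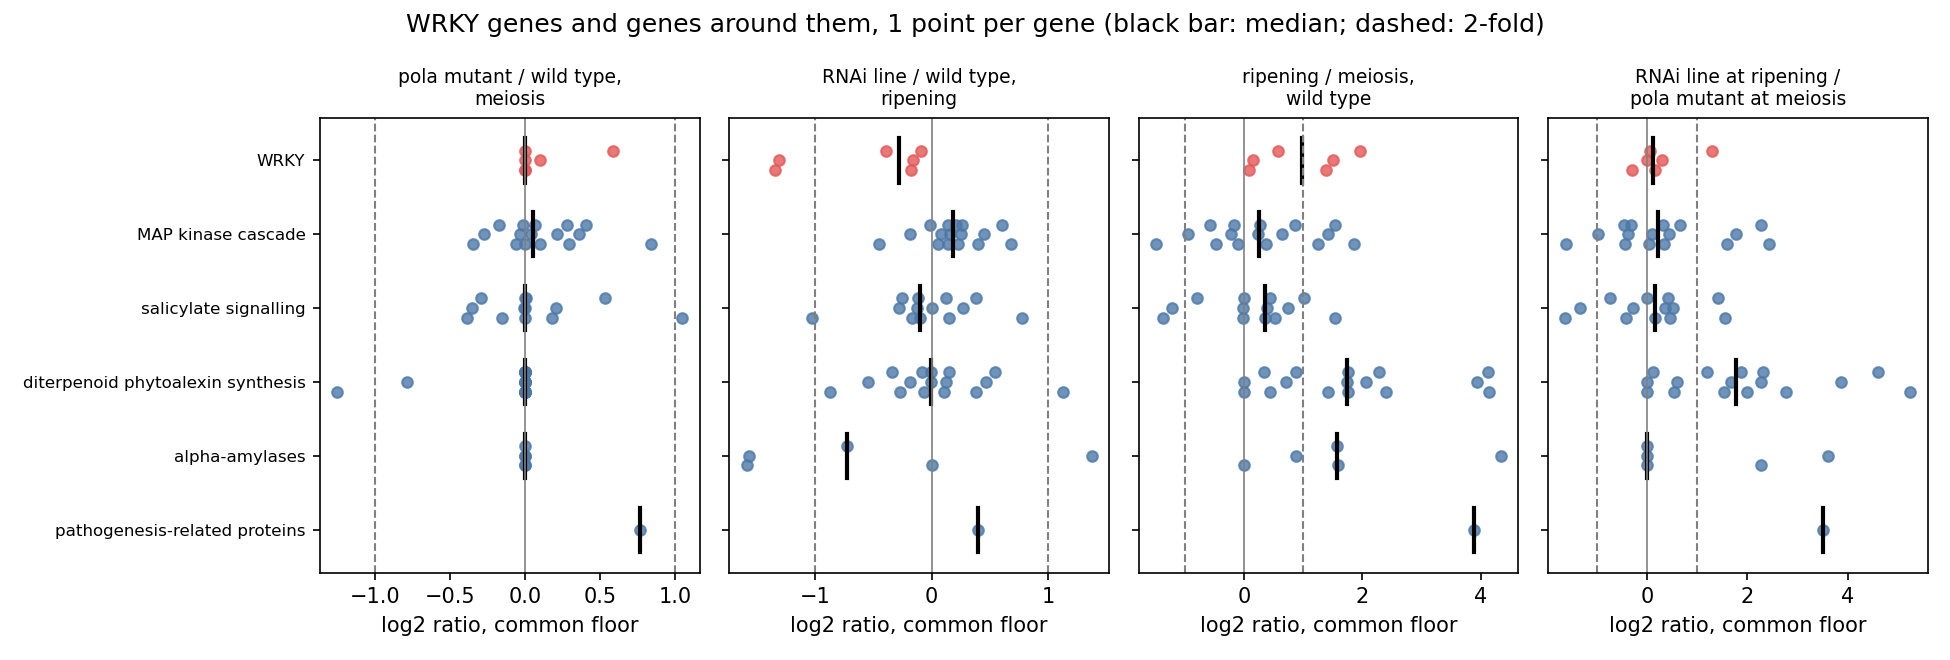
Log2 ratios with the common floor of the 6 WRKY genes (red) and of the listed genes around them (blue) in the 4 comparisons, 1 point per gene, with medians as black bars and dashed lines at 2-fold; the horizontal scale differs between panels. In both stage comparisons the phytoalexin genes have medians of 1.75 and 1.77, while in the mutant comparison nearly all dim genes sit at 0.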

How the data were processed

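Panicle RNA of 4 groups was measured on 1 Affymetrix array each, after Trizol extraction and one-cycle biotin labelling per the labels' protocols. The authors deposited 1 intensity per probe set, computed with MAS5 according to the submitters' processing notes and linear in scale. The sources used here give neither a MAS5 version nor detection calls. No value was below 0, and the 2% trimmed mean was 500.0 on every array.

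The 187 control probe sets were set aside, leaving 57194. Of these, 22436 were paired with 1 gene, 95 with several, and 34663 were absent from the probe-gene table. Names came from a gene table of another assembly (ASM3414082v1), used for names and neighbours only. Each gene was represented by its probe set of highest mean signal. Ratios, the filter, calls and background shares were computed over all 17905 genes, with Python 3.11.15, numpy 2.4.6, pandas 2.3.3 and statsmodels 0.14.6, checked on simulated data. No test was run.

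The members and lists were chosen with earlier results of these data known. Up to 3 called genes were named per list and comparison, the largest by size; genes that stayed called with the floor as the 1 gene of a list were added after their values were seen. Symbols that matched several genes were not used as stage markers. Alternatives were 3 scalings (median ratio at 0, quantile, loess with a span of 0.3), pseudocounts of 5.85 and 103, the floor of 163, 3 filters (none, mean signal, 75th percentile), a 4-fold threshold, and 2 other choices of probe sets.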

Additional observations from a re-analysis of the deposited data

Results flagged for a closer look

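Several genes had ratios of opposite sign in the mutant comparison at meiosis and the RNAi comparison at ripening. With 1 array per group the difference was not tested, and the comparisons differ in stage and in the kind of plant. It is given as the RNAi log2 ratio minus the mutant log2 ratio. Over all genes 37.7% had opposite signs.

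For WRKY71 the difference was -1.86, or -1.89 with the common floor, on bright signals throughout. For WRKY24 it was -2.85, or -1.35 with the floor. It was small for WRKY9 (-0.38), WRKY51 (-0.27) and WRKY76 (-0.40), for which no ratio in either comparison was called under the main setting. WRKY76 in the mutant, dim on both arrays and not kept, had 0.32 there and 1.07 after quantile normalization.

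Among the genes around them, NH1 (LOC4327315) had -1.94, with 0.99 in the mutant and -0.95 in the RNAi line. AMY1.2 (LOC4347262) had -4.65, with dim signals in both meiotic samples. CYP71Z7 (LOC4329726) had 2.05, CYP99A2 (LOC4335096) 2.81 and KSL10 (LOC4352248) 2.31, and the meiotic signals of these 3 were dim as well.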

How the results depend on the processing

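No paired analysis was possible because each group had 1 array, and for the same reason no replicate could be left out. Of 48 counts of WRKY genes past 2-fold under the alternatives, 35 stayed within 1.5 times the main count and 13 did not. In the mutant comparison the main count of 2 became 1 with the median signal as pseudocount or a 4-fold threshold (WRKY62), and 0 with the common floor or the 75th percentile filter. In the RNAi comparison the count of 2 became 1 (WRKY71) after quantile normalization, after loess centring, with the median signal as pseudocount or with the 75th percentile filter, and 0 with the median ratio set to 0 or a 4-fold threshold. Between wild-type stages the count of 3 became 1 (WRKY71) with the 75th percentile filter, and the genes called were the same 3 under each other alternative except the 4-fold threshold (2). Between the RNAi line and the mutant the count of 2 became 1 (WRKY76) with the floor and 0 with the 75th percentile filter. The 75th percentile filter leaves fewer genes by construction, and otherwise the cause was not tested. No WRKY ratio past 2-fold changed sign. Setting the median ratio of all probe sets to 0 moved the median over genes from 0.01 to 0.32 in the mutant comparison, from 0.04 to 0.44 in the RNAi comparison and from 0.03 to -0.17 between wild-type stages, and it moved the balance between stages from 2488 higher and 2649 lower genes to 2041 and 3292. The other probe set of WRKY71, added after the data were seen, gave the same calls as the first. Signal over background limits WRKY62 in every comparison and WRKY24 and WRKY76 at meiosis.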
